A study of Mus musculus with 3 samples.

Results

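In newborn (P0) mouse back skin, 280 of 5065 cells carried transcripts of at least 2 genes of the inner hair layers and none of the fibroblast receptor gene Pdgfra, which is 5.53% of the P0 library (exact 95% binomial interval 4.91 to 6.19%), in a series of 16235 cells. The rule listed 16 genes. The root sheath list held the inner root sheath keratins Krt25, Krt26, Krt27, Krt28, Krt71, Krt72 and Krt73 and trichohyalin (Tchh), and the shaft list held the hair keratins Krt31, Krt32, Krt33a, Krt34, Krt35, Krt36, Krt82 and Krt85. Of these genes 14 were measured, and the expression of Krt26 and Krt85 was not analysed here. The 280 cells fell into 129 with more root sheath than shaft genes (root sheath-gene cells), 63 with more shaft genes (shaft-gene cells) and 88 with equal numbers (tied cells), and 159 of the 280 carried genes of both lists. The cells were thus chosen on the measured values of these genes, and what the rule used is given below only as description.

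The series profiled dorsal skin of male C57BL/6 mice by droplet single-cell RNA sequencing, with tags at the 3′ end of each transcript and unique molecular identifiers (UMIs), for the embryonic stages E13.5 and E16.5 and for newborn (P0) skin. Each stage was 1 library prepared from pooled animals, with no genetic change and no treatment. Embryonic skin was digested with trypsin and newborn skin with collagenase IV, so that stage, library and digestion cannot be told apart. With 1 library a stage there was no replicate check and no test was made. Levels are summed UMIs of a group per 1000000 UMIs of that group (CPM), intervals in brackets are exact 95% Poisson or binomial intervals, and these cover counting error only.

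The growing hair is made by the matrix at the base of the follicle, whose dividing cells surround the dermal papilla and give rise to concentric layers. The inner root sheath, built from type I keratins such as Krt25, Krt27 and Krt28 paired with type II keratins such as Krt71 and Krt73 and hardened with trichohyalin, moulds the hair, while cuticle, cortex and medulla of the shaft take up the hair keratins. Hoxc13, Msx2, Dlx3 and Lef1 are transcription factors known for their roles in matrix and shaft, and Gata3 and Cux1 for theirs in the inner root sheath.

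The total per cell was high in these cells. The median was 13317.5 UMIs over the 280 cells (4150 to 101984), against 6797 over the P0 library, 10212 in the matrix-gate cells described below and 6167.5 in non-epithelial cells. Root sheath-gene cells had a median of 11419 UMIs, tied cells 14647.5 and shaft-gene cells 16259, and the part of this depth in passing the rule was measured by thinning each cell to 3500 UMIs: 93 cells then met the rule, 51 with more root sheath and 9 with more shaft genes. Mitochondrial transcripts made up 3.05% of UMIs. Scrublet called 5 of the 280 cells doublets, 3 of them root sheath-gene cells, none a shaft-gene cell and 2 tied, and all were kept. All but 5 cells carried at least 3 of 8 epithelial genes. The E13.5, E16.5 and P0 libraries held 53334740, 66239195 and 46599806 UMIs, and pairs of libraries shared 32 to 44 cell barcodes.

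The promoters of 4 root sheath keratins are shown first, because their genes gave most root sheath UMIs. Of 201 P0 cells with Krt27 105 carried Krt28, as did 38 of 61 with Krt25 and 15 of 98 with Krt71 (15.3%), against 5.11% of all P0 cells. Krt25, Krt27 and Krt28 lie in the type I keratin cluster of chromosome 11 and Krt71 in the type II cluster of chromosome 15. Each sequence runs from 250 bases before to 50 bases after the annotated start, 5′ to 3′ on the minus strand of GRCm38.p6 (RefSeq), at chr11:99322902-99323201 for Krt25, chr11:99351069-99351368 for Krt27, chr11:99374854-99375153 for Krt28 and chr15:101743048-101743347 for Krt71, and Krt34, a shaft keratin at chr11:100041505-100041804, is set beside them. Capitals mark matches to the 4 short motifs named in the next paragraph, searched on both strands.
Krt25: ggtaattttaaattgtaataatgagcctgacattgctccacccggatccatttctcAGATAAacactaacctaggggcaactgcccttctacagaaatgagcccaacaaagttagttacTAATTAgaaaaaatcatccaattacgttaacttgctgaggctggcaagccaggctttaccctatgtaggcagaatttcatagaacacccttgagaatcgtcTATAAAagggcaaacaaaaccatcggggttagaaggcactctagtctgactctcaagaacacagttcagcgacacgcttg
Krt27: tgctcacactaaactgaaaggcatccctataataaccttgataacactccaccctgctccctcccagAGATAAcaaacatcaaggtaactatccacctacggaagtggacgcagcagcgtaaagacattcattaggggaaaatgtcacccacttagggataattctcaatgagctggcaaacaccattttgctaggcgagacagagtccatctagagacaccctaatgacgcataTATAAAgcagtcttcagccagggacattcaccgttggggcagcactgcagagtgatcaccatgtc
Krt28: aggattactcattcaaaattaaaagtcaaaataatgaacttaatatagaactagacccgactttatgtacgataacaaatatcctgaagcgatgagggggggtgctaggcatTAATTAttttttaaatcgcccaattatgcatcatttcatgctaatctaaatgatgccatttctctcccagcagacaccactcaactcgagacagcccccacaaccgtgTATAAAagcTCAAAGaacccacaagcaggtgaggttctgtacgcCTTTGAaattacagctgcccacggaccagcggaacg
Krt71: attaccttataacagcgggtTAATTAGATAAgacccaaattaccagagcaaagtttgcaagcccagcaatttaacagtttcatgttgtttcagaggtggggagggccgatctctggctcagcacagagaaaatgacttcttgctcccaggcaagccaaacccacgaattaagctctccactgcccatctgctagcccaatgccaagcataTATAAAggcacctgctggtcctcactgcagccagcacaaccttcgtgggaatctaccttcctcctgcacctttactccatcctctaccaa
Krt34: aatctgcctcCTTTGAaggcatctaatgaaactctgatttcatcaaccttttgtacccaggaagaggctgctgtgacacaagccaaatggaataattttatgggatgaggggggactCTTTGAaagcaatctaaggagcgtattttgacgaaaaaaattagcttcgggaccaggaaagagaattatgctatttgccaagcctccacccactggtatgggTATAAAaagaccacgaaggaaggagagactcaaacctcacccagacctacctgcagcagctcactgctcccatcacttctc

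A RefSeq promoter was matched for 13 of the 16 listed genes, 8 of the root sheath and 5 of the shaft list. TATAAA, the letters of the TATA box, was found in 7 of 8 root sheath and 3 of 5 shaft promoters, against 13.6% of all 32817 promoters of this length. In Krt25, Krt26, Krt28 and Krt73 its first base lay 30 bases before the start. The only match in Krt72 lay on the other strand, 203 bases before the start. AGATAA, letters read by GATA factors, was found in 5 of the 8 root sheath promoters (Krt25, Krt27, Krt71, Krt73 and Tchh) and in 0 of 5 shaft promoters, against 11.2% of all promoters. TAATTA, a homeodomain core that is its own reverse complement and overlaps the preceding motif in Krt71, was found in 4 root sheath promoters (Krt25, Krt28, Krt71 and Krt73) and in that of Krt32, against 5.30%. CTTTGA, letters read by LEF and TCF factors, was found in 2 root sheath promoters (Krt28 and Tchh) and 3 shaft promoters (Krt31, Krt32 and Krt34), against 16.001%. These matches describe the letters of the windows and not bound sites.

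Krt28 was the root sheath keratin detected in most cells. It reached 405 CPM (378 to 434) in root sheath-gene cells, where 113 of 129 cells carried it, against 120 CPM in tied cells, 5.66 CPM in shaft-gene cells and 3.43 CPM in non-epithelial cells. Krt27 lay at 106 CPM (92.7 to 121) in root sheath-gene cells, with 103 cells carrying it, at 25.3 CPM in tied cells and at 6.22 CPM in shaft-gene cells. Krt25 lay at 90.7 CPM (78.1 to 105) in 39 root sheath-gene cells, at 3.17 CPM in tied cells and at 0 in shaft-gene cells, where 0 UMIs allow up to 2.09 CPM. These genes set the groups, so the order is that of the rule.

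The type II partners were carried by fewer cells. Krt71 summed to 113 CPM (98.6 to 128) in root sheath-gene cells from 22 cells only, and 30.0% of those UMIs came from 1 cell. Krt73 lay at 27.9 CPM (21.2 to 36.2) in 13 root sheath-gene cells, and Tchh at 19.1 CPM in 22 root sheath-gene cells, 10.2 CPM in shaft-gene cells and 24.1 CPM in tied cells. Tchh thus did not separate the groups, and Krt72 had no UMI in the P0 library. As a background, a Krt28 UMI was found in 1.65% and a Krt71 UMI in 0.689% of the 3338 non-epithelial cells, at their lower depth.

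Apart from Krt35, described below, the shaft keratins were low. Krt32, a keratin of the hair cuticle, led the shaft-gene cells with 49.8 CPM (39.9 to 61.3) in 45 of 63 cells, against 36.1 CPM in tied cells, 8.82 CPM in root sheath-gene cells and 35.2 CPM in cells outside the rule with 1% or more of their UMIs in Krt1, Krt10 and Krtdap (suprabasal-gate cells). Krt33a, Krt34 and Krt31, keratins of the cortex, lay at 20.4, 15.8 and 10.7 CPM in shaft-gene cells, in 29, 21 and 17 cells. Krt36 lay at 5.09 CPM in 9 cells, and Krt82 had 2 UMIs in the whole P0 library.

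Krt35 (chr11:100092193-100096241, GENCODE vM21 on GRCm38), a hair keratin of the upper matrix and cortex, did not follow the split. It lay at 156 CPM (139 to 174) in root sheath-gene cells, at 138 CPM (120 to 158) in tied cells and at 36.8 CPM (28.4 to 46.9) in shaft-gene cells, although it is a gene of the shaft list. The UMIs came from 29, 38 and 21 cells, and 1 cell gave 32.4% of them among root sheath-gene cells and 42.7% among tied cells. A cell with Krt35 together with Krt27 and Krt28 counts as root sheath-gene by the rule, and 18 of the 129 cells had exactly that combination.

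**Figure D1:**
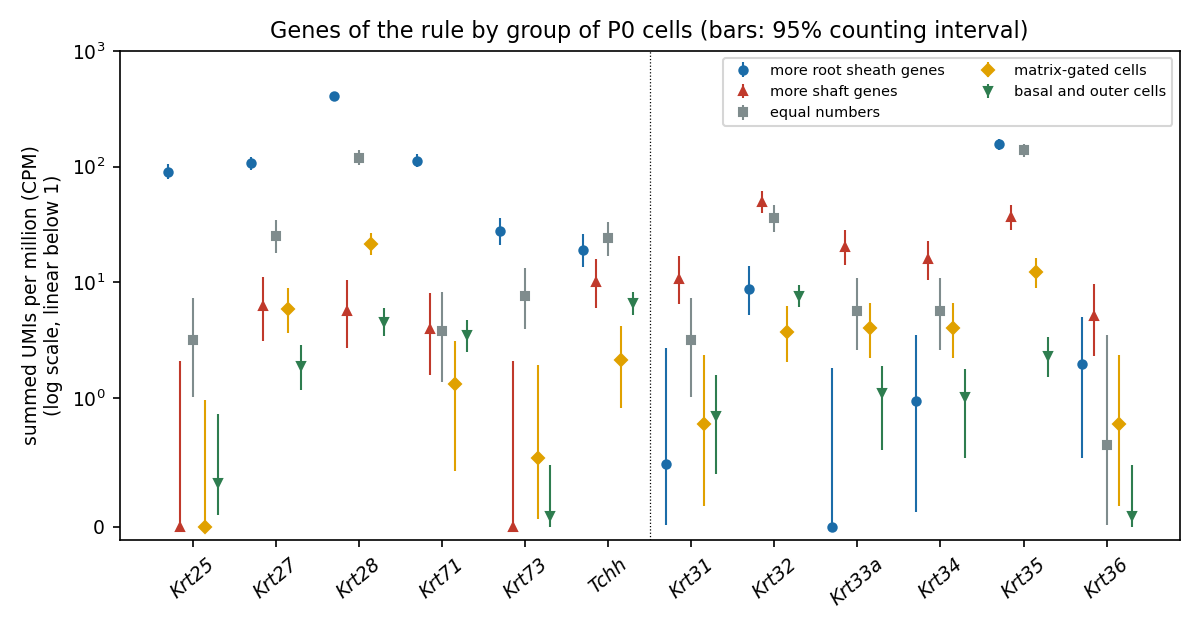
Summed UMIs per 1000000 (CPM, log scale, linear below 1) of the measured root sheath genes (left of the dotted line) and shaft genes (right) in the groups of P0 cells, with exact 95% Poisson intervals that cover counting error only. Krt28 lies at 405 CPM in cells with more root sheath genes and at 5.66 CPM in cells with more shaft genes, while Krt35 lies at 156 and 36.8 CPM, against the split.

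Most cells held few UMIs of the rule genes. Root sheath-gene cells had a median of 8 rule-gene UMIs, with 53 cells at 10 or more and 29 under 4. Shaft-gene cells had a median of 4, with 5 cells at 10 or more and a highest cell at 16, and tied cells a median of 2, with 46 of 88 cells at exactly 2 UMIs. In sum root sheath-gene cells held 1555 root sheath and 343 shaft UMIs, shaft-gene cells 46 and 245, and tied cells 290 and 299.

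A few cells were rich in these transcripts. The richest held 205 rule-gene UMIs, with 55 of Krt25, 64 of Krt28, 69 of Krt71 and none of Krt35, and 28 of Gata3. The next, a tied cell, held 83 of Krt28 and 93 of Krt35 but none of Krt71, with 29 UMIs of Msx1, 21 of Msx2 and 12 of Hoxc13. Another held 103 Krt35 UMIs among only 4880 in all. High Krt28 therefore occurred both with Krt71 and with Krt35.

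**Figure D2:**
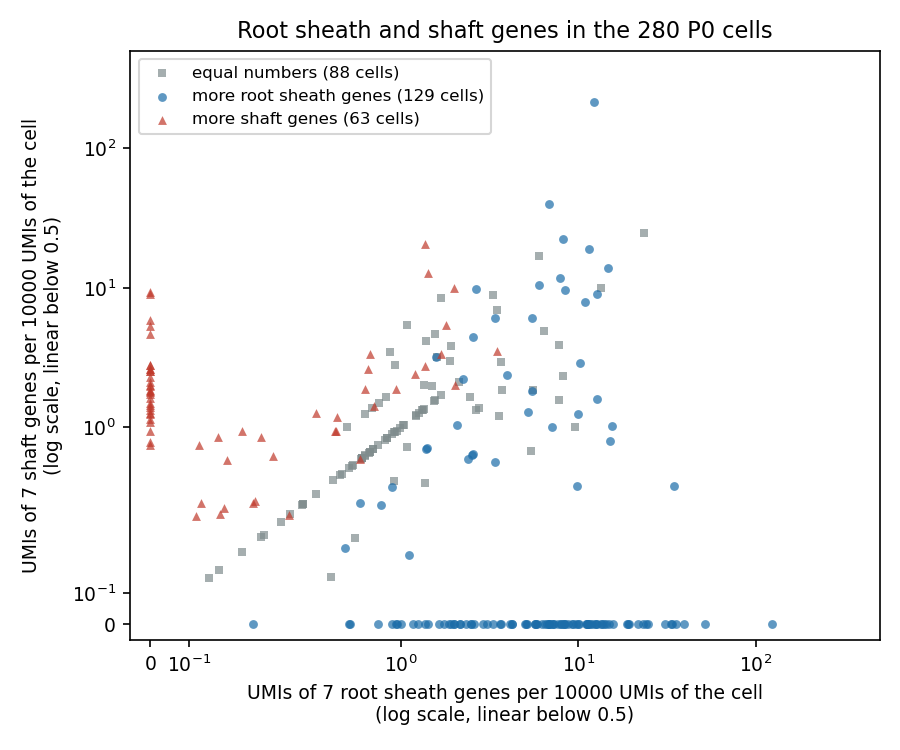
Each point is 1 of the 280 P0 cells, placed by its root sheath-gene UMIs (horizontal) and shaft-gene UMIs (vertical) per 10000 UMIs of the cell, both on log scales that are linear below 0.5, with colours and markers for the 129, 63 and 88 cells of the groups. Shaft-gene cells reach at most 16 rule-gene UMIs, while the richest root sheath-gene cell holds 205 and a tied cell 188.

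The combinations of genes differed between the groups. Among root sheath-gene cells, Krt27 with Krt28 (40 cells) Krt25 with both (18 cells) and Krt35 with both (18 cells) were the commonest sets. Shaft-gene cells were scattered, with Krt31 and Krt32 in 6 cells and Krt32 and Krt33a in 6. Tied cells were led by Tchh with Krt32 (21 cells) and Krt28 with Krt35 (20 cells), which are different pairs of a root sheath and a shaft gene. Over all P0 cells, 65 of 170 cells with Krt35 (38.2%) also carried Krt28, 38 of 61 cells with Krt25 (62.3%) did, and 20 of 220 cells with Krt32 (9.09%) did.

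The label of shaft precursor was checked on genes outside the rule, and few of the genes listed for matrix and shaft set the shaft-gene cells apart from the 1447 epithelial cells of the library that did not meet the rule. A gene counted as higher or lower when its levels differed by at least 1 on the log2 scale after 10 CPM was added, with a counting interval that left out 0. Of 21 transcription factors of matrix and shaft 1 was higher and none lower, against 0.257% higher and 1.41% lower of 10887 genes, with a median log2 difference of 0.11 against -0.11 over those genes. It was Foxq1, a forkhead gene known from the hair medulla, at 19.2 and 3.34 CPM. Of 10 matrix genes 1 was higher, Shh, at 78.6 and 32.5 CPM (log2 difference 1.06, 0.82 to 1.29). Hoxc13 lay at 33.9 and 28.6 CPM, Lhx2 at 302 and 297 CPM, Msx1 at 1.70 and 2.98 CPM, Msx2 at 8.48 and 13.6 CPM and Lef1 at 39.6 and 59.0 CPM, none past the threshold. In root sheath-gene cells 6 of the same 21 factors were higher and none lower, against 0.395% and 1.13% of 10899 genes. In the shaft-gene cells keratins of other layers were abundant, with Krt15 at 3092 CPM, Krt14 at 2505 CPM, Krt79 at 1941 CPM and Krt10 at 863 CPM, and these 63 cells are called by their rule.

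The root sheath-gene cells carried Cux1 at 270 CPM, against 177 CPM in matrix-gate and 60.7 CPM in basal and outer layer cells (epithelial cells in none of the other groups). Gata3 lay at 224 CPM in them, but also at 208 CPM in suprabasal-gate, 173 CPM in basal and outer layer and 156 CPM in matrix-gate cells. By contrast the hardening enzyme genes Tgm1 and Tgm3 were near 0 in root sheath-gene cells, at 1.47 and 1.96 CPM. None of Padi1, Padi2, Padi3 and Padi4 was above 1.1 CPM there. Of 17 measured genes listed for hardening 5 had no UMI in these cells, but others were not near 0. Ctsl lay at 249 CPM there and 431 CPM in matrix-gate cells, and Lgmn at 61.3 and 76.5 CPM. Cst6 lay at 22.1 and 9.36 CPM and S100a3 at 21.6 and 4.81 CPM.

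Root sheath-gene and shaft-gene cells were compared on genes outside the rule. The homeobox genes Msx1, Msx2, Dlx3 and Dlx2, Cux1 and the metallothionein gene Mt2 were higher in root sheath-gene cells, and the keratins Krt1, Krt10, Krt15 and Krt79 were higher in shaft-gene cells. Genes were compared when they had at least 50 UMIs in both groups together, by the threshold given above. Of 6527 genes, 90 were higher (1.38%) and 73 lower (1.12%) in root sheath-gene cells. With the mean of per-cell CPM, which weights cells equally, the split turned to 123 higher and 168 lower. Calls also rose in number with 1 CPM added and without cells of both lists, as counted in the last section. These are calls on counts of 2 sets of cells from 1 library.

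Msx1 (chr5:37820485-37824583), a homeobox gene that responds to BMP signals, lay at 108 CPM in 50 of 129 root sheath-gene cells and at 1.70 CPM in 2 of 63 shaft-gene cells, 3.33 apart on the log2 scale (2.93 to 3.58). Its relative Msx2 lay at 88.7 and 8.48 CPM in 74 and 14 cells, 2.42 apart (1.99 to 2.79). Dlx3, a homeobox gene required for hair, lay at 97.5 and 15.8 CPM in 85 and 24 cells, 2.06 apart (1.66 to 2.44). These genes were carried by a larger share of the root sheath-gene cells, and not by 1 cell, since no cell gave over 9.09% of their UMIs there.

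Cux1 lay at 269.6 and 72.4 CPM, 1.76 apart on the log2 scale (1.51 to 2.02). Cldn10, a tight junction claudin, lay at 108 CPM in 66 root sheath-gene cells and 1.70 CPM in 3 shaft-gene cells, and Fzd1, a Wnt receptor, at 94.6 and 14.1 CPM. Prnp, the prion protein gene, lay at 189 and 28.8 CPM, the metallothionein Mt2 at 1492 and 297 CPM, and the progestin receptor gene Paqr5 at 99.99 and 17.0 CPM. Wnt5a, a Wnt ligand, lay at 27.4 and 1.13 CPM, and the cyclin gene Ccnd2 at 982 and 472 CPM (log2 difference 1.04).

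Some of the genes furthest apart rested on few cells. Ccer2 lay at 538 and 3.96 CPM, but 99.5% of its UMIs came from 1 root sheath-gene cell. Ptgds, a prostaglandin synthase, was found in 15 cells (34.9% from 1 cell), and Dct, a melanin enzyme of melanocytes, lay at 124 and 25.5 CPM with 30.0% from 1 cell, and its difference turned to -0.46 when the rule was applied after thinning.

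Connective tissue genes moved with this comparison. Decorin (Dcn), a proteoglycan of connective tissue, lay at 1008 and 226 CPM, in 116 of 129 and 54 of 63 cells. Of 9 dermal genes compared 7 were higher in root sheath-gene cells and none lower, among them Col1a1 at 542 and 188 CPM, Col3a1 at 745 and 361 CPM and Vim at 346 and 145 CPM. The 10 dermal genes summed to 3970 CPM in root sheath-gene, 1575 CPM in shaft-gene and 2542 CPM in tied cells, against 3589 CPM in matrix-gate and 42550 CPM in non-epithelial cells, and none of the 10 was at 0 in root sheath-gene or shaft-gene cells. Their part in the other differences was not tested. The ratio of Dcn to Col1a1 was 1.86 in root sheath-gene, 1.20 in shaft-gene and 1.57 in matrix-gate cells, against 0.539 in basal and outer layer and 0.284 in non-epithelial cells.

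Of 5 suprabasal epidermal genes compared, Krt1, Krt10 and Krtdap were higher in shaft-gene cells, while Sbsn (136 and 79.4 CPM) and Calml3 (49.2 and 34.8 CPM) were not past the threshold. Krt10 and Krt1, keratins of suprabasal cells, lay at 863 and 730 CPM there and at 211 and 188 CPM in root sheath-gene cells (log2 differences -1.98 and -1.90), with 45.6% and 50.8% of the shaft-gene UMIs from 1 cell. Krt79, a keratin of the upper follicle, lay at 1941 CPM in 32 of 63 shaft-gene cells and at 500.4 CPM in 39 of 129 root sheath-gene cells, a log2 difference of -1.93 (-2.03 to -1.84). Klk7, a protease of the cornified layer, was found in 12 shaft-gene cells and 1 root sheath-gene cell, and Sdr16c6, a dehydrogenase gene, in 20 and 4 cells. Calm4 lay at 649.9 and 169.6 CPM, Ly6g6c at 97.8 and 16.7 CPM and Psapl1 at 55.4 and 7.84 CPM.

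Cd74, H2-Ab1, H2-Aa and H2-Eb1, the antigen presentation genes of immune cells, were also lower in root sheath-gene cells, with log2 differences of -3.57, -2.74, -2.63 and -2.02, but between 92.4% and 98.3% of their shaft-gene UMIs came from 1 cell. When each gene was compared without its top cell in either group, 158 genes were past the threshold, 85 higher and 73 lower, of which 138 were among the first 163.

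**Figure D3:**
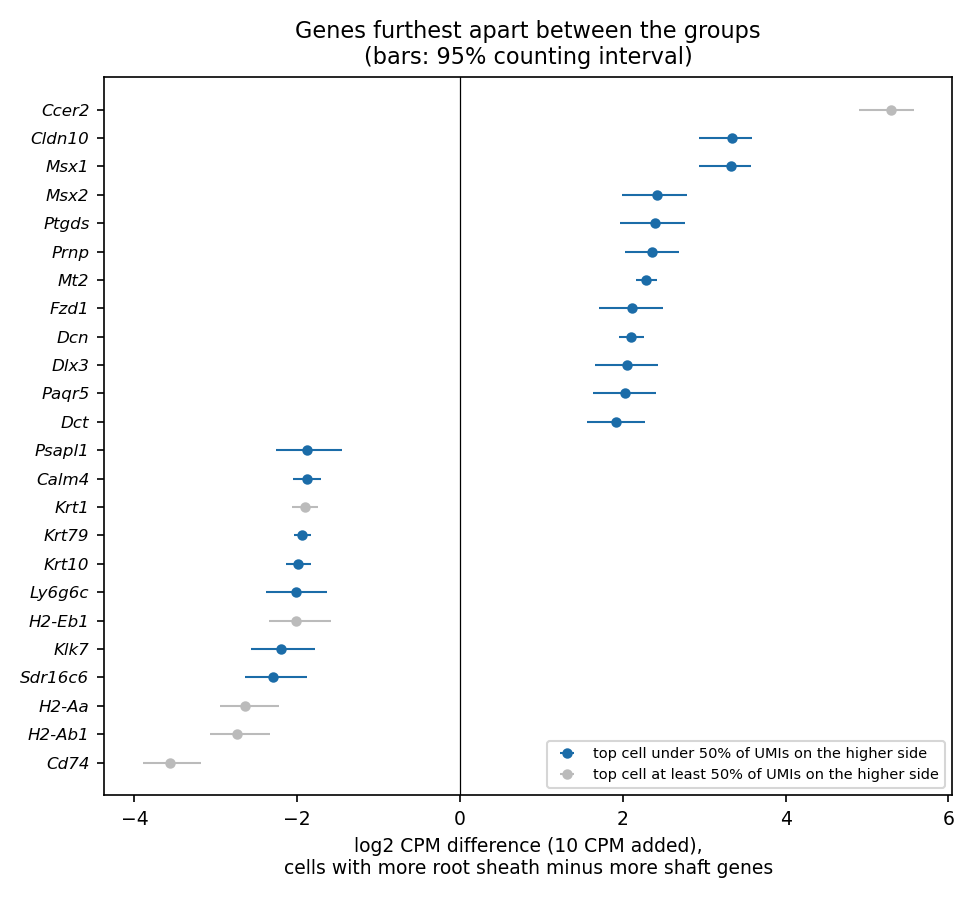
Difference in log2 CPM (10 CPM added) between root sheath-gene and shaft-gene cells for the genes furthest apart in each direction, with 95% counting intervals, and genes for which 1 cell gave most UMIs drawn apart. Msx1 (3.33) and Cldn10 (3.34) lie furthest to the right apart from Ccer2, which rests on 1 cell, and Krt10 (-1.98) and Krt79 (-1.93) lie to the left.

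By role, the lists gave the following counts beside a median log2 difference of 0.08 over all genes compared. Of 20 transcription factors of matrix and shaft 5 were higher in root sheath-gene cells (Msx1, Msx2, Dlx3, Dlx2 and Myb) and 1 lower (Barx2, 133 and 277 CPM), with a median of 0.67. Hoxc13 lay at 66.2 and 33.9 CPM, Lef1 at 84.3 and 39.6 CPM and Lhx2 at 370.1 and 302 CPM, none of them past the threshold. Of 15 factors of the inner root sheath and general epithelium 1 was higher, Cux1, and none lower, with a median of -0.39, and Gata3 lay at 224 and 197 CPM.

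Of 13 Wnt pathway genes 1 was higher (Wnt5a), and beta-catenin (Ctnnb1) differed by 0.03 on the log2 scale (-0.13 to 0.18). Of 16 BMP genes 3 were higher (Msx1, Msx2 and the pseudoreceptor gene Bambi at 37.3 and 13.0 CPM) and 1 lower, the antagonist follistatin (Fst) at 137 and 347 CPM. None of 8 Notch and none of 8 Hedgehog genes was past the threshold, with Notch1 at 64.7 and 69.0 CPM and the ligand Shh at 57.8 and 78.6 CPM. None of 7 desmosome genes was past it either. Over all 6527 genes 1.38% were higher and 1.12% lower, so lists this short would hold few such genes in any case.

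The 5 suprabasal genes had a median of -1.80. Of 6 outer layer keratins Krt15 (981 and 3092 CPM) and Krt79 were lower, while Krt14, the basal keratin, lay at 1526 and 2505 CPM and Krt17 at 2023 and 2809.9 CPM. Krt75, the keratin of the companion layer, was higher (27.9 and 4.52 CPM), but 63.2% of its UMIs came from 1 cell. Of 36 S phase genes 7 were higher, among them Rrm2 (155 and 39.6 CPM), Mcm2 (86.3 and 25.5 CPM) and Pcna (177 and 70.1 CPM), and none of 50 G2/M genes was.

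Both groups were next set beside 274 matrix-gate cells of the same library, epithelial cells that did not meet the rule and carried at least 2 of Shh, Hoxc13, Msx1, Msx2 and Lef1. Those gate genes were left out, and both comparisons share these 274 cells. In root sheath-gene cells 55 of 8014 genes were higher (0.686%) and 48 lower (0.599%), or 55 and 92 with the mean of per-cell CPM. The last section gives the larger counts with 1 CPM added and with the rule applied after thinning. Ccer2 was furthest apart, at 538 and 6.69 CPM, but turned to -0.32 without its top cells. It was followed by the surface protein gene Lypd3 at 231 and 28.9 CPM (log2 difference 2.63, 2.39 to 2.87). Further down lay the nectin gene Pvrl4 at 56.4 and 7.76 CPM. Prnp (33.7 CPM in matrix-gate cells, log2 difference 2.19) and Cldn10 (18.7 CPM, 2.04) were also higher.

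Krt79 lay at 500.4 and 109 CPM, with about as large a share from 1 cell in each group (38.7% and 39.9%). The epithelial metallothionein Mt4 lay at 53.4 and 6.69 CPM, the lipoxygenase Alox12e at 58.3 and 9.09 CPM and Fam25c at 42.6 and 4.55 CPM. Of the transcription factors of matrix and shaft, Dlx3 (97.5 and 40.4 CPM) and Ovol1 (41.2 and 6.95 CPM) were higher, 2 of 15, and of 5 suprabasal genes 4 were. Among these Krt10 turned to -0.33 when the rule was applied after thinning, and 38.6% of its UMIs came from 1 root sheath-gene cell. For Krt1 that share was 36.7%. Of 6 desmosome genes Dsg1a was higher (38.2 and 9.63 CPM), and none of 10 Notch or 8 Hedgehog genes was past the threshold in either direction. Over all 8014 genes 0.686% were higher and 0.599% lower.

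The signals Bmp2 (34.3 and 103 CPM) and Bmp7 (86.8 and 193 CPM) were lower in root sheath-gene than in matrix-gate cells, as was Sp5, a Wnt target gene (23.0 and 76.2 CPM). Chst2, a sulfotransferase gene, lay at 16.7 CPM in 20 root sheath-gene cells and 73.3 CPM in 136 matrix-gate cells, a log2 difference of -1.64 (-1.99 to -1.29). The other 11 of the 12 lowest genes, Car3, Cd74, Adipoq, S100a8, Retnlg, Fabp4, Hp, S100a9, H2-Aa, H2-Ab1 and Trf, are known from fat cells, neutrophils and other immune cells, and 1 matrix-gate cell gave 36.4 to 98.0% of their UMIs.

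In shaft-gene cells 89 of 7814 genes were higher (1.14%) and 57 lower (0.729%) than in matrix-gate cells. This count was larger with 1 CPM added, after thinning and without cells of both lists, as given in the last section. All 5 suprabasal genes compared were higher, with a median of 3.09, among them Krtdap at 1411 and 150.3 CPM, Krt10 at 863 and 92.5 CPM and Krt1 at 730.2 and 57.5 CPM. Krt79 was the furthest apart (1941 and 109 CPM, log2 difference 4.04, 3.90 to 4.18), and Calm4, Ly6g6c, Ly6d (1809 and 297 CPM), Klk7 and the cell cycle inhibitor Cdkn1a (231 and 40.4 CPM) followed. The desmosome genes Jup, Pkp1 and Dsg1a were higher, 3 of 6.

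Lhx2 (302 and 646 CPM), Mycn (54.3 and 134 CPM) and Dlx2 (4.52 and 23.0 CPM) were lower and Barx2 (277 and 92.5 CPM) was higher, 3 and 1 of 15 matrix and shaft factors. Cux1 lay at 72.4 and 177 CPM, a log2 difference of -1.18 that turned to 0.13 when the rule was applied after thinning. Dcn was lower (226 and 744 CPM, log2 difference -1.67), with 5 of 9 dermal genes lower and none higher, and the melanocyte genes Pmel (35.6 and 159 CPM), Dct and Mlana were lower. In shaft-gene cells 77.8% of Pmel UMIs came from 1 cell.

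All 280 cells were then compared with 1173 other epithelial cells of the library, the cells that met neither the rule nor the matrix gate, again without the gate genes. Of 10891 genes 30 were higher (0.275%) and 110 lower (1.01%). Many more were called with 1 CPM added or with the rule applied after thinning, as counted in the last section. Mt4 lay at 43.6 CPM in 67 of 280 cells and 1.34 CPM in 14 of 1173 (log2 difference 2.24, 2.06 to 2.41), Alox12e at 54.8 and 10.2 CPM, Sp5 at 34.7 and 4.96 CPM, the chaperone gene Hspa2 at 41.2 and 7.79 CPM, the iron exporter Slc40a1 at 67.6 and 18.7 CPM and Bach2 at 63.5 and 17.3 CPM. Dlx3 (54.8 and 14.3 CPM), Cux1 (171 and 58.2 CPM) and Mt2 (891 and 330.3 CPM) were also among the 12 highest, as were Ccer2 and Ccl21a, of which 98.5% and 93.3% came from 1 cell.

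Of 17 matrix and shaft factors 4 were higher (Dlx3, Sox21, Mycl and Myb), of 18 Wnt genes 2 (Sp5 and Notum), of 16 BMP genes 1 (Bmp4, 53.5 and 20.8 CPM) and of 15 Notch genes none. Krt14 was lower (2335 and 5057 CPM, log2 difference -1.11), and Krt79 higher (1009 and 428 CPM). The lowest genes were the globins Hbb-bt, Hba-a1, Hba-a2 and Hbb-bs (142 and 1292 CPM for Hbb-bs), and 7 of 10 dermal and 4 of 7 immune genes were lower too.

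Because the matrix gate removes cells with its genes, these were compared with all 1447 epithelial cells outside the rule, gated or not. Msx1 lay at 56.1 CPM in 64 of 280 cells and at 2.98 CPM in 31 of 1447, 2.35 apart on the log2 scale (2.17 to 2.51). Msx2 lay at 51.6 and 13.6 CPM, 1.39 apart (1.20 to 1.57), and Shh at 75.2 and 32.5 CPM, 1.002 apart (0.84 to 1.16). Hoxc13 (54.0 and 28.6 CPM) and Lef1 (65.0 and 59.0 CPM) were not past the threshold. Against all 1447 cells 79 genes were past it in all, 14 higher and 65 lower.

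Since Krt28 met both Krt35 and Krt71, the 280 cells were also divided by their abundant keratins, a division chosen after the values were seen. With a minimum of 5 UMIs, 28 cells were rich in Krt35 (Krt35-rich), 12 in the sum of Krt25, Krt71 and Krt73 (sum-rich), and 48 in Krt28 without the others (Krt28-rich). The 28 Krt35-rich cells also carried Krt28, at 501 CPM in 24 cells, against 837 CPM in the 48 Krt28-rich cells. The 12 sum-rich cells also carried Krt28, at 797 CPM in 10 cells, with Krt25 at 514 CPM in 10, Krt71 at 747 CPM in 7 and Krt73 at 195 CPM in 9. A further cell was rich in both Krt35 and the sum, and 191 cells had under 5 UMIs of each. The Krt35-rich cells were spread over the rule's groups, with 15 root sheath-gene, 5 shaft-gene and 8 tied cells. Median depths of the 3 sets were 11695, 11799.5 and 9809.5 UMIs.

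Krt35-rich cells carried Hoxc13, a homeobox gene that controls hair keratins, at 210.1 CPM in 24 of 28 cells, against 43.3 CPM in 18 of 48 Krt28-rich cells and 17.7 CPM in 2 of 12 sum-rich cells. The log2 difference between Krt35-rich and Krt28-rich cells was 2.05 (1.47 to 2.63), and it was 1.58 and 3.09 with minimum counts of 3 and 10. Mt4 (372 and 64.1 CPM), the polyamine synthesis gene Odc1 (476 and 96.1 CPM), Bmp2 (136 and 24.5 CPM), the Wnt antagonist gene Notum (106 and 7.54 CPM), Sp5 (113 and 1.88 CPM) and Slc40a1 (194 and 41.5 CPM) were higher in the same direction. The log2 difference of Sp5 fell from 3.37 to 1.51 and 1.46 with minimum counts of 3 and 10, and that of Slc40a1 from 1.99 to 1.73 and 1.06, while those of Mt4 and Notum were 3.27 and 3.65 at 10, against 2.37 and 2.73. Shh (194 and 86.7 CPM), Sox21 (182 and 79.1 CPM) and Bmp4 (182 and 77.3 CPM) differed by 1.08, 1.11 and 1.14 on the log2 scale, but Shh by 0.93 and 0.94 with minimum counts of 3 and 10 and Sox21 by 0.90 with 3, under the threshold.

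Msx1 and Msx2 were carried by both Krt28-rich and Krt35-rich cells. Msx1 lay at 285 CPM in 28 Krt28-rich and 231 CPM in 17 Krt35-rich cells, a log2 difference of -0.29 (-0.65 to 0.07) for Krt35-rich minus Krt28-rich that turned to 0.48 (0.0094 to 0.95) with a minimum count of 10. Msx2 lay at 158 and 150.1 CPM and Lef1 at 153 and 127 CPM, with intervals of the difference that include 0 at each minimum count, though at 10 the Msx2 difference turned from -0.072 to 0.41 and that of Lef1 from -0.25 to 0.12. Cldn10 (277 and 76.2 CPM), Prnp (448 and 134 CPM), Ccnd2 (2014 and 755 CPM) and Dcn (2180.1 and 579.6 CPM) were higher in Krt28-rich cells, as was the glutathione transferase gene Mgst1 (229.9 and 9.24 CPM). With other minimum counts the difference of Prnp moved from -1.67 to -0.79 (at 10, under the threshold), that of Dcn from -1.89 to -1.22 (at 3) and that of Mgst1 from -3.64 to -2.45 (at 3) and -4.33 (at 10). The dermal genes summed to 5566 CPM in Krt28-rich and 1676 CPM in Krt35-rich cells, and the part of such transcripts in Dcn was not tested. The melanocyte gene Pmel lay at 303 and 18.5 CPM, with 64.0% from 1 Krt28-rich cell, a log2 difference of -3.46 that was -0.061 with a minimum count of 3. Of the called doublets 2 were Krt28-rich and none was Krt35-rich.

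Among the genes examined, sum-rich and Krt28-rich cells were furthest apart in Krt79, the upper follicle keratin, at 2444 and 58.4 CPM (log2 difference 5.16, and 5.12 without top cells), though only 5 of the 12 carried it. Krt17, a keratin of the outer layers, lay at 5316 and 411 CPM, 3.66 apart, or 2.80 with a minimum count of 3. The Krt79 difference was 4.57 with a minimum of 10. Sum-rich cells carried Msx1 at 31.9 CPM, Lef1 at 24.8 CPM, Shh at 24.8 CPM and Cldn10 at 7.08 CPM, and no UMI of Mt4, Sp5, Notum or Bmp2, which allows up to 13.1 CPM of each. The log2 difference of Msx1 between sum-rich and Krt28-rich cells was -2.81 (-3.61 to -2.03), or -1.55 with a minimum count of 3, and that of Lef1 -2.22 (-3.08 to -1.36). Anxa1, an annexin, lay at 864 CPM in 11 of 12 cells against 121 CPM in Krt28-rich cells, cathepsin C (Ctsc) at 241 CPM in 8 cells against 13.2 CPM, and the POU factor Pou3f1 at 379 against 160.2 CPM, a log2 difference of 1.19 that was 0.92 with a minimum count of 3. Gata3 lay at 389.6 CPM in all 12 sum-rich cells and 283 CPM in Krt28-rich cells, but the difference of 0.45 was -0.06 and -0.05 with minimum counts of 3 and 10. The 12 cells hold a few large ones, and 1 cell gave 87.0% of Krt14, 64.4% of Krt17 and 68.1% of S100a6 UMIs.

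**Figure D4:**
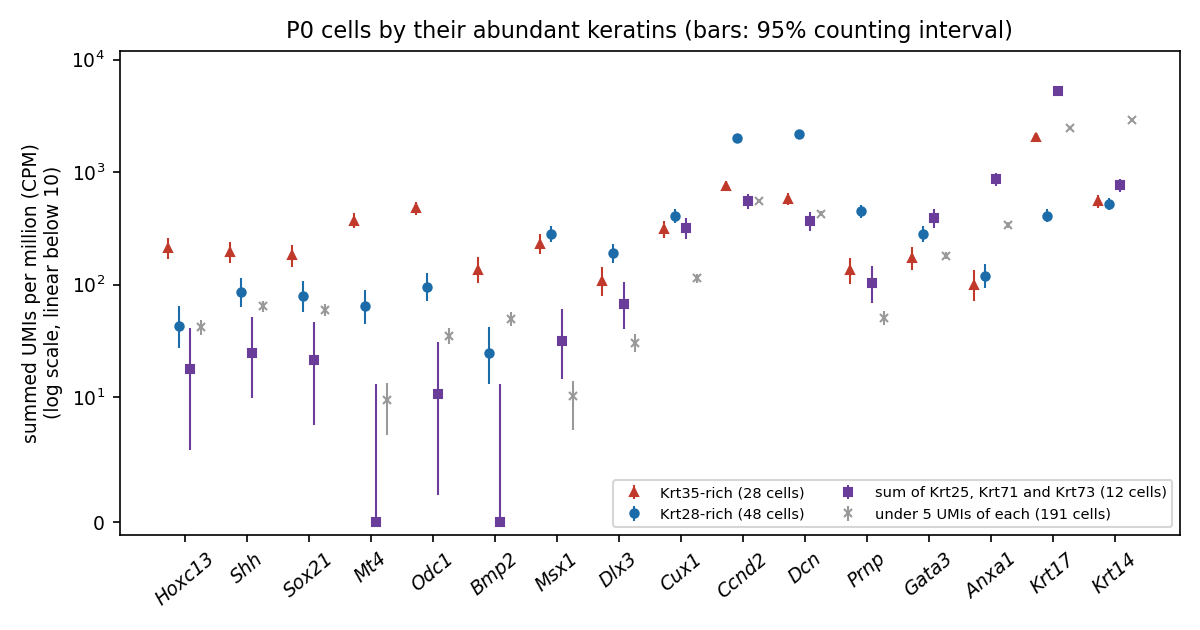
Summed UMIs per 1000000 (CPM, log scale, linear below 10) of genes outside the rule in the P0 cells rich in Krt35 (28 cells), in Krt28 (48 cells), in the sum of Krt25, Krt71 and Krt73 (12 cells) and in the 191 cells with under 5 UMIs of each, with exact 95% Poisson intervals. Hoxc13 stands at 210.1, 43.3 and 17.7 CPM in these 3 sets, while Msx1 stands at 231, 285 and 31.9 CPM.

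Krt35 also split the rule's own groups, again on values seen before. Among root sheath-gene cells, the 29 with Krt35 carried Hoxc13 at 165 CPM in 22 cells and the 100 without it at 43.9 CPM in 36 cells. Tied cells with Krt35 (38) carried Msx1 at 129 CPM, Hoxc13 at 111 CPM and Krt10 at 97.6 CPM, and tied cells without it (50) carried them at 1.03, 29.8 and 2650.2 CPM, so that the tied cells joined unlike cells. Shaft-gene cells with Krt35 (21) carried Hoxc13 at 59.9 CPM but Msx1 at only 5.61 CPM, and the 42 without it had no Msx1 UMI.

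Within the root sheath-gene cells, some genes outside the rule differed with the level of the root sheath genes. The 129 cells were ordered by the share of their UMIs in root sheath genes and divided into 3 bins of 43 cells, with levels of 26.2 to 338 CPM, 341 to 980.1 CPM and 993 to 12319.5 CPM. Krt14 lay at 2611, 693 and 233 CPM from the low to the high bin and Krt15 at 1811, 252 and 105 CPM, or at 2362, 433 and 199 CPM and at 1608, 134 and 95.98 CPM without the top cell of each bin. Msx1 lay at 12.02, 191 and 209.7 CPM, Dlx3 at 44.1, 127 and 175 CPM and Cux1 at 150.2, 346 and 430.2 CPM. Lhx2 lay lower in the high bin, at 427, 409 and 201 CPM. Gata3 at 175, 171 and 396 CPM and Hoxc13 at 67.1, 87.0 and 38.5 CPM had no steady order. Connective tissue transcripts were highest in the middle bin, with the dermal genes at 3149, 6215 and 2966 CPM and Dcn at 444, 1934 and 1074 CPM, and their part in the other values was not tested.

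The fall of Krt14 from the low to the high bin was -3.43 on the log2 scale (-3.71 to -3.16). The bins differed in depth, with median totals of 16803, 10704 and 8643 UMIs, so a cell in the low bin could meet the rule with a small share of its UMIs. The part of depth in these values was not tested beyond the alternative of cells with at least 2500 genes, where the fall was -2.41. In shaft-gene cells the same division into bins of 21 cells gave median depths of 51121, 16028 and 8547 UMIs. Krt10 lay at 105, 879 and 4742 CPM, Krt35 at 5.54, 25.2 and 224 CPM and Msx1 at 1.85, 0 and 4.77 CPM. Krt35 is among the shaft genes by which these cells were ordered, so its rise is that of the ordering. The Krt10 levels rested on few cells, since 1 cell gave 84.7% of its UMIs in the middle and 70.0% in the high bin, and without each bin's top cell they were 97.8, 148 and 1525 CPM.

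**Figure D5:**
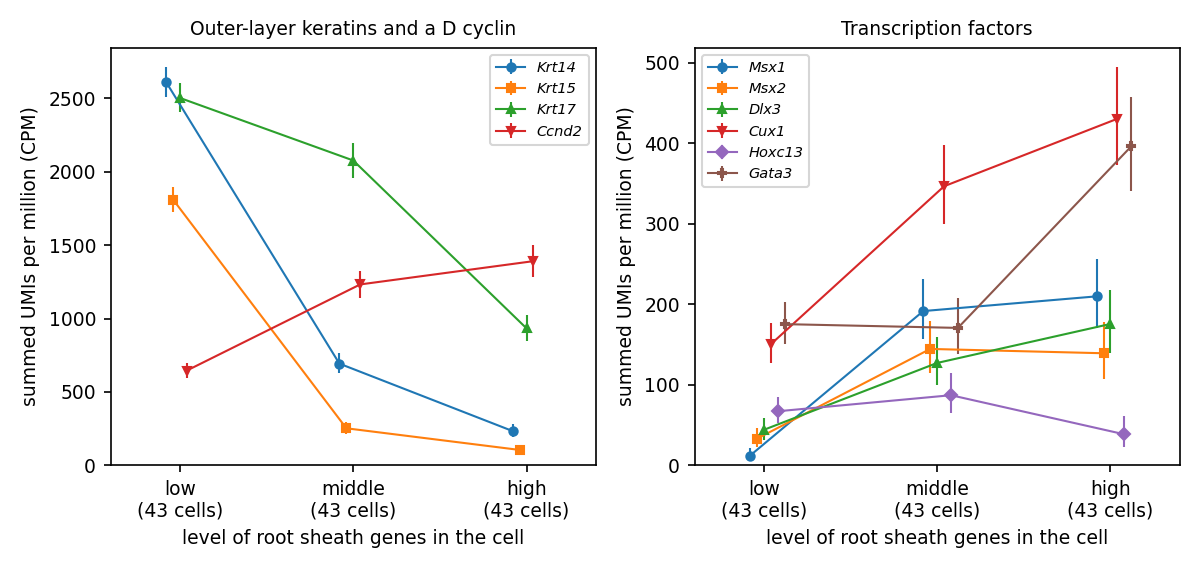
Summed UMIs per 1000000 (CPM, linear axes) in 3 bins of root sheath-gene cells (43 cells each), ordered by the level of the root sheath genes. Krt14, Krt15, Krt17 and Ccnd2 are on the left, and Msx1, Msx2, Dlx3, Cux1, Hoxc13 and Gata3 on the right, with exact 95% Poisson intervals. From the low to the high bin Krt14 goes from 2611 to 233 CPM and Msx1 from 12.02 to 209.7 CPM.

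Cell cycle phase was called after each cell was thinned to 3500 UMIs. Of root sheath-gene cells 17 of 129 were in G1 (13.2%, 7.87 to 20.3%), of shaft-gene cells 17 of 63 (27.0%, 16.6 to 39.7%) and of tied cells 31.8%, against 20.1% of matrix-gate cells, 36.1% of the remaining basal and outer layer cells and 90% of the suprabasal cells. The intervals of root sheath-gene and shaft-gene cells overlap. With phases called by list medians instead, the G1 shares were 3.88% of root sheath-gene, 11.1% of shaft-gene and 5.84% of matrix-gate cells. S phase genes summed to 2889 CPM in root sheath-gene, 1446 CPM in shaft-gene and 2470.4 CPM in matrix-gate cells, and G2/M genes to 6448, 5644 and 7198 CPM. None of the 48 Krt28-rich cells was in G1, against 7 of 28 Krt35-rich and 3 of 12 sum-rich cells.

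Clusters of the P0 library, made without the 16 rule genes and Pdgfra, placed 94 of 129 root sheath-gene cells in 1 cluster, but 39 of 129 at resolution 2. Of 22 clusters 1 held 156 of the 280 cells, among 404 cells in all (38.6%, 33.8 to 43.6%), with 25 shaft-gene and 37 tied cells. Shh, Sp5, Slc40a1 and Sox21 were among its leading genes outside the rule. All 28 Krt35-rich and 41 of 48 Krt28-rich cells lay in it, and 8 of 12 sum-rich cells. A cluster led by Prss35, Lhx2 and Mycn held 27 of the cells, 11 of them shaft-gene, and one led by Ccer2, Serpinb10 and Krt14 held 21, 12 of them tied. A cluster led by Krt79, Pthlh and Gjb6 held 24 of the cells, 15 of them shaft-gene, a cluster led by Krt1, Krt10 and Calm4 held 21, 15 of them tied, and a melanocyte gene cluster (Pmel and Dct) held 9. The rest were spread, and 18 clusters held at least 1 cell.

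At the earlier stages the rule found almost no cells. It was met by 1 of 5962 E13.5 cells and by 9 of 5208 E16.5 cells (0.173%, 0.0790 to 0.328%), of which 6 were tied, 2 had more shaft and 1 more root sheath genes. After thinning to 3500 UMIs, which left out 1 shallower E16.5 cell, 0 of 5962 E13.5, 1 of 5207 E16.5 and 93 of 5065 P0 cells met it (1.84% of the last, 1.48 to 2.24%). Krt28 had 7, 13 and 1246 UMIs in the libraries, Krt35 0, 11 and 745, Krt71 0, 15 and 316 and Krt25 0, 0 and 207. Tchh went against this order, with 393, 585 and 277 UMIs (7.37, 8.83 and 5.94 CPM). The 0 of 5962 thinned E13.5 cells allow a share of up to 0.0619% by the exact interval.

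The cells just outside and just inside the threshold of 2 genes were mixed. There were 534 cells with 1 rule gene and no Pdgfra, 166 with 2 and 85 with 3. Of these, 119, 5 and 0 cells carried under 3 of the 8 epithelial genes, so the 1-gene cells hold more cells that are not epithelial. From 1 to 2 to 3 genes, Msx1 lay at 6.44, 42.8 and 51.4 CPM, Krt14 at 3845, 3104 and 1851 CPM, and the fibroblast collagen Col1a1 at 1394, 492 and 248 CPM, while the median total was 8845.5, 12002.5 and 14146 UMIs. Beyond 3 genes Msx1 kept no order, at 173 CPM in the 16 cells with 4, 7.83 CPM in 8 cells with 5, 179 CPM in 4 cells with 6 and 0 in the cell with 8. Another 33 cells met the gene count but carried Pdgfra, with Col1a1 at 2014 CPM. The most rule genes in a cell, 8, were found in 1 cell of 89784 UMIs.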

How the data were processed

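The deposited table held 19165 genes in 16235 cells of 3 libraries, 1 per stage. Per the labels and the study's methods, the authors made it with Cell Ranger 2.2.0, kept cells with at least 1750 genes, scaled each cell to 10000 UMIs and deposited the natural log of the scaled value plus 1. Whole UMI counts were recovered by inverting this scaling: of 48197283 values above 0, 0 were further than 0.001 from a whole number. The members and the gene lists were chosen with earlier results of these data known. UMIs were summed per group and compared as log2 CPM with 10 CPM added, for genes with at least 50 UMIs, with exact 95% intervals, in Python 3.11.15 (numpy 2.4.6, scipy 1.17.1), after a check on simulated data. The simulated counts were 1 Poisson sum per group without variation between cells, so the check does not cover genes that rest on 1 cell. The comparison cells were not members, carried no Pdgfra and carried at least 3 of 8 epithelial genes. All remaining P0 cells were called non-epithelial, those with Pdgfra among them. The matrix gate asked for 2 of 5 genes, and suprabasal cells had 1% or more of UMIs in Krt1, Krt10 and Krtdap. For each comparison the 12 highest and 12 lowest genes were named, plus the list members with most UMIs. Some of these genes are not reported here. Rule, gate and epithelial genes stood outside the comparisons they define. Clusters came from scanpy 1.11.5 and leidenalg 0.10.2 (2000 variable genes, 30 components, 15 neighbours, resolution 1), and doublets from Scrublet at an expected rate of 0.06. Gene symbols and positions came from the files and GENCODE vM21, and promoters from RefSeq. The expression of Krt26 and Krt85 was not analysed here. Alternatives covered the rule, depth, pseudocount, low filter, doublets and clustering. Those with Krt32 and Tchh or Krt35 not counted, the comparisons with the rule applied after thinning, the richest or top cells left out, the wider epithelial set and the division by abundant keratins were added after the data were seen.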

Additional observations from a re-analysis of the deposited data

How the results depend on the processing

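No paired analysis was possible because each stage was 1 library. Asking for 3 rule genes gave 114 cells (67 root sheath-gene and 41 shaft-gene), and thinning before the rule gave 93 (51 and 9). Without Krt32 and Tchh there were 28 shaft-gene cells. Root sheath-gene against shaft-gene cells gave 163 genes, 375 with 1 CPM added, 291 with per-cell means and 249 without cells of both lists. Root sheath-gene against matrix-gate cells gave 103, 253 with 1 CPM and 340 with the rule after thinning. Shaft-gene against matrix-gate cells gave 146, 404 with 1 CPM, 245 without cells of both lists and 288 after thinning. All cells against other epithelial cells gave 140, 621 with 1 CPM, 214 with 3 rule genes, 418 after thinning and 79 with matrix-gate cells included. The causes were not tested. The sign of Ccer2 turned to -0.0668 between root sheath-gene and shaft-gene cells with 3 rule genes. Against matrix-gate cells Ccer2 was -0.39, -0.11, -0.35 and -0.32 with 3 rule genes, after thinning, without Krt32 and Tchh and without top cells. For all cells Ccer2 was -3.24, -3.24, -3.299 and -0.69 in the same order. Ccl21a turned for all cells to -1.11 with 3 rule genes, -0.48 without cells of both lists and -0.98 after thinning. It was -1.38 without Krt35 and -0.11 without top cells. Between root sheath-gene and shaft-gene cells, H2-Aa turned to 0.0926 without cells of both lists. H2-Aa was also 0.10 without Krt32 and Tchh and 0.10 without top cells, and it reached 0 after thinning. H2-Ab1 turned to 0.16 without cells of both lists. Dct turned to -0.46 between root sheath-gene and shaft-gene cells after thinning. In matrix-gate comparisons Krt10 turned to -0.33 (root sheath-gene) and Cux1 to 0.13 (shaft-gene) after thinning, and S100a8 to 0.16 with at least 2500 genes per cell and 0.0866 without top cells. G1 shares by list medians were 3.88% (root sheath-gene) and 11.1% (shaft-gene). At resolution 2 the main cluster held 23.6% of the cells against 55.7%. At E16.5 0.0192% of cells met the rule after thinning. The Krt14 fall of -3.43 was -2.41 with at least 2500 genes and -2.95 without Krt32 and Tchh. Of the single-gene values under an alternative, 1027 stayed within the counting interval and 539 left it with the sign kept where called. The remaining 24 turned sign or reached 0, as above. Medians of 4 rule-gene UMIs in shaft-gene and 2 in tied cells limit both groups.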
